A study of Mus musculus with 16 samples.

Results

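The 8 genes described here mark the alveolar type 1 cell, the thin, flat epithelial cell that covers most of the gas exchange surface of the lung. They are Aqp5, Rtkn2, Hopx, Ager, Pdpn, Clic5, Akap5 and Cav1, taken by symbol from array probe sets annotated with that symbol alone, and they are 8 of the 19938 genes measured in this way. Each of the 8 had a single probe set, so no choice between probe sets had to be made. In the order above the probe sets were 10426767, 10363743, 10530819, 10444407, 10518147, 10445347, 10396640 and 10536499.

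RNA of whole mouse lung was hybridised to Affymetrix whole-transcript arrays, 1 array per sample and 4 arrays in each of 4 groups. The groups were Vldlr-/- mice (KO) given house dust mite extract (HDM), wild-type B6129SF2/J mice (WT) given HDM, KO mice given saline, and WT mice given saline. Vldlr codes for a lipoprotein receptor of the cell surface with apolipoprotein E among its ligands, and HDM is an inhaled allergen that produces asthma-like inflammation of the airways. Each dose went into the nose as 25 µg of HDM in 10 µl, or as the same volume of saline, on 5 days of the week over 6 weeks. The labels name biological replicates but give neither how many animals gave each RNA sample, nor their age, nor the strain of the KO mice, nor the part of Vldlr that was deleted, and no batch. P-values therefore measure only the spread between samples of the same group, pooled over the 4 groups.

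Type 1 cells form the air side of the barrier between air and blood, lie on a basement membrane shared with capillary endothelium, and are replaced after injury by alveolar type 2 cells, the surfactant-making cells that can flatten and turn into type 1 cells. The transcription factor NKX2-1 and the YAP and TAZ coactivators, which act through TEAD factors, maintain the type 1 state in mice. Apart from Rtkn2, the 8 genes cover several sides of this cell: water flow (Aqp5), regulation of transcription (Hopx), pattern recognition and adhesion (Ager), shape and adhesion (Pdpn), the cytoskeleton under the membrane (Clic5), anchoring of kinases (Akap5) and the coat of caveolae (Cav1).

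The 250 bases before the transcription start were taken from RefSeq for build GRCm38.p6, in which 7 of the 8 genes had an entry, with 9 windows in all because Hopx and Cav1 had a pair each; Rtkn2 had none. They were searched on both strands for CACGTG, the E-box bound by basic helix-loop-helix factors that include those of the circadian clock, for GGAATG, bound by TEAD factors, and for CAAGTG, bound by NKX2-1. The E-box stood in 3 of the 9 windows, those of Aqp5, Pdpn and the first of Hopx, and in 6.02% of all 32851 windows of this length. GGAATG stood in 0 of the 9 and in 12.64% of all windows, and CAAGTG in 0 of the 9 and in 11.61% of all. The 3 windows with a match are shown because clock genes differed between the groups on these arrays, as described further on, with the E-box in capitals and each read 5′ to 3′ on the strand of its gene.
Aqp5, chr15:99590778-99591027, plus strand, E-box beginning 87 bases before the start: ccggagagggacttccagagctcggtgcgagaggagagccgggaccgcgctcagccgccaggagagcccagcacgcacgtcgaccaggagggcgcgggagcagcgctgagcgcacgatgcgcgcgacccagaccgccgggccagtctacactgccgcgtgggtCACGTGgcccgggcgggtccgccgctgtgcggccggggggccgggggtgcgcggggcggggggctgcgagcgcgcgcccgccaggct
Hopx, chr5:77095268-77095517, minus strand, E-box beginning 86 bases before the start: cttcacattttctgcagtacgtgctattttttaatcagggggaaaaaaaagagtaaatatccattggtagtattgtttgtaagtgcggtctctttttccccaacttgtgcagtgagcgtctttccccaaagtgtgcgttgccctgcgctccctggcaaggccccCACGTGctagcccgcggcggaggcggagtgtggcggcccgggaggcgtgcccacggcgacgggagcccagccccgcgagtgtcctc
Pdpn, chr4:143299565-143299814, minus strand, E-box beginning 144 bases before the start: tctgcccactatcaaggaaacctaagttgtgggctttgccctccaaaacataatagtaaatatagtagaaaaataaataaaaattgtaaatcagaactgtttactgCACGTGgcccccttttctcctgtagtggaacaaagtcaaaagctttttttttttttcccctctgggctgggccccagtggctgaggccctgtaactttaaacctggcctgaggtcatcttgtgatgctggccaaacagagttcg
These matches describe letters in a window and nothing about which factor was bound.

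Array medians lay between 8.78 and 8.85 on the log2 scale, and correlations between arrays over all genes between 0.978 and 0.997. KO HDM 4 stood apart from the other 3 KO HDM arrays: on the second principal component (21.4% of the variance) it lay at -3.26 and they lay between 8.35 and 16.1. Vldlr itself lay between 9.40 and 9.91 on the 8 KO arrays, against 10.27 to 10.92 on the 8 WT arrays, a difference of -0.93 under HDM (SE 0.12, limma adjusted p = 0.000277) and of -0.76 under saline (SE 0.12, adjusted p = 0.00697, and not passed with WT saline 2 and 3 both left out). With a score of clock genes as a covariate the Vldlr difference under HDM did not pass either. Surfactant protein C (Sftpc), the defining transcript of type 2 cells, lay between 13.41 and 14.09 on the 16 arrays. Levels of different probe sets are not compared here as amounts of transcript, because probes differ in how they bind.

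Aqp5 and Rtkn2 were lower under HDM than under saline in both genotypes. Hopx, Ager and Clic5 were lower under HDM in KO lungs, where the calls of Ager and Clic5 ended in 5 and 6 of 18 alternatives. Pdpn was lower under HDM in WT lungs with a call that many alternatives ended. Between genotypes under HDM, Hopx, Akap5 and Cav1 were lower in KO than in WT lungs, with calls that ended in 8, 10 and 4 of 18 alternatives, and no gene of the 8 passed between genotypes under saline. Because whole lung was measured, fewer type 1 cells, less RNA per cell and a larger share of RNA from other cells cannot be told apart in any of these results.

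**Figure D1:**
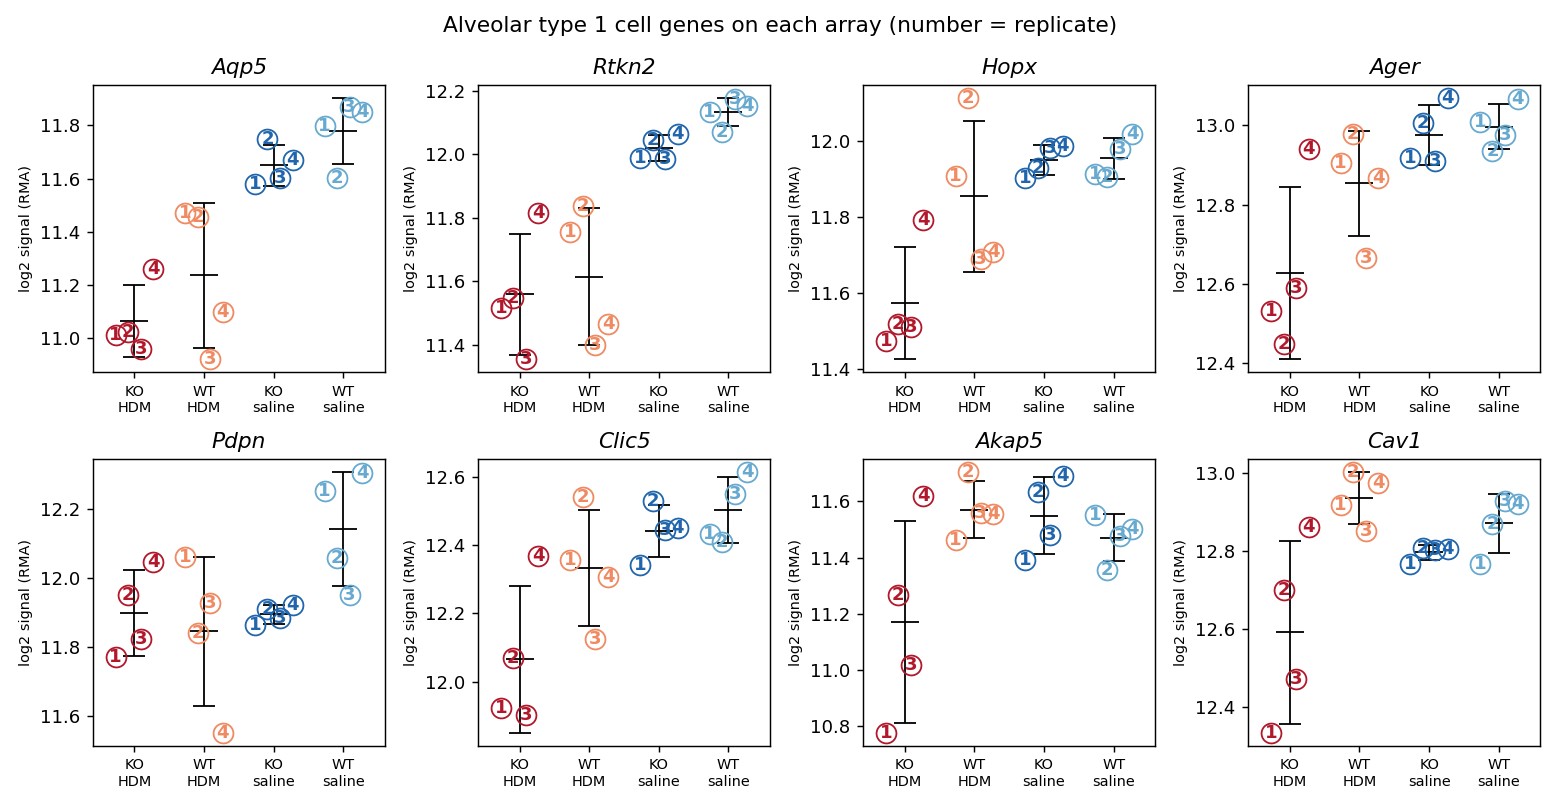
Log2 signal of each of the 8 genes on each of the 16 arrays, 1 panel per gene, with groups from left to right KO HDM, WT HDM, KO saline and WT saline. Numbers mark the replicate, and bars show the group mean with the standard deviation (SD) on either side. Aqp5 and Rtkn2 lie lower on all HDM arrays than on all saline arrays of the same genotype, and KO HDM 4 is the highest of its group for all 8 genes.

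Aqp5 encodes aquaporin 5, the water channel of the air-facing membrane of type 1 cells. Its log2 signal was 11.01, 11.02, 10.96 and 11.26 on KO HDM arrays 1 to 4, against 11.58, 11.75, 11.60 and 11.67 on the KO saline arrays. In WT lungs it was 11.47, 11.46, 10.92 and 11.10 on HDM arrays 1 to 4, against 11.80, 11.60, 11.87 and 11.85 on the saline arrays. Every HDM array lay under every saline array of its genotype, and within each HDM group the arrays were spread more widely than within the saline groups. Aqp5 fell by 0.59 in KO lungs (SE 0.11, n = 4 per group, limma adjusted p = 0.0023) or a change of -33.4% on the linear scale. In WT lungs it fell by 0.54 (SE 0.11, 95% interval -0.77 to -0.32, limma adjusted p = 0.00359), a change of -31.5%. The fall in KO lungs passed under all 18 alternatives, with differences between -0.71 and -0.55. The fall in WT lungs passed under 18 of 19, and ended with a score of clock genes as a covariate (-0.90, SE 0.24, adjusted p = 0.203).

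Rtkn2 encodes rhotekin 2, whose transcript is enriched in type 1 cells. It was at 11.52, 11.55, 11.36 and 11.82 on the KO HDM arrays, against 11.99, 12.04, 11.98 and 12.06 on the KO saline arrays. The WT HDM arrays gave 11.76, 11.84, 11.40 and 11.47, against 12.13, 12.07, 12.18 and 12.15 on the WT saline arrays. Here too no HDM array reached the lowest saline array of its genotype, and the saline arrays of a group lay within a narrow band (SD 0.04 in each genotype, n = 4). Rtkn2 fell by 0.46 in KO lungs (SE 0.09, limma adjusted p = 0.00534, a change of -27.3%) and fell by 0.52 in WT lungs (SE 0.09, adjusted p = 0.0026, a change of -30.1%). The KO fall passed under all 18 alternatives (-0.55 to -0.39), and the WT fall under all 19 except the clock score (-0.67, SE 0.22, adjusted p = 0.319). Between genotypes under HDM the difference was -0.06 (SE 0.09, adjusted p = 0.757).

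Hopx encodes a small homeodomain protein that does not itself bind DNA and that marks type 1 cells and cells on the way to that state. On the KO HDM arrays it was at 11.47, 11.52, 11.51 and 11.79, against 11.91, 12.11, 11.69 and 11.71 on the WT HDM arrays. Under saline it was at 11.90, 11.93, 11.98 and 11.99 in KO lungs and at 11.91, 11.91, 11.98 and 12.02 in WT lungs. The KO HDM arrays therefore lay under all KO saline arrays, while the WT HDM arrays lay on both sides of the WT saline arrays. Hopx fell by 0.38 in KO lungs under HDM (SE 0.09, limma adjusted p = 0.00998, a change of -23.0%), in all 18 alternatives (-0.45 to -0.34). In WT lungs the difference was -0.10 (SE 0.09, adjusted p = 0.412). Under HDM, KO lungs were lower than WT lungs by a difference of -0.28 (SE 0.09, adjusted p = 0.0406), with KO HDM 4 above WT HDM 3 and 4. That call ended without KO HDM 1, 2 or 3 (-0.25, -0.26 and -0.26, adjusted p = 0.131, 0.0985 and 0.109) and without WT HDM 1 or 2 (-0.26 and -0.20, adjusted p = 0.0817 and 0.134). It also ended with the clock score (-0.17, adjusted p = 0.836) and in a fit of only the 2 groups (adjusted p = 0.156). A block for the replicate number ended it too (limma adjusted p = 0.0513).

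Ager encodes the receptor for advanced glycation end products, a pattern recognition receptor that is held at the basal side of type 1 cells. It was at 12.53, 12.45, 12.59 and 12.94 on the KO HDM arrays, against 12.92, 13.01, 12.91 and 13.07 on the KO saline arrays. In WT lungs it was at 12.91, 12.98, 12.67 and 12.87 under HDM, against 13.01, 12.93, 12.98 and 13.07 under saline. KO HDM 1, 2 and 3 lay under all KO saline arrays, and KO HDM 4 lay among them. Ager fell by 0.35 in KO lungs (SE 0.09, limma adjusted p = 0.0207, a change of -21.4%), and in WT lungs the difference was -0.14 (SE 0.09, adjusted p = 0.256). The KO call ended without KO HDM 1, 2 or 3 (-0.32, -0.29 and -0.34, adjusted p = 0.0666, 0.0751 and 0.0603) and without KO saline 2 or 4 (-0.34 and -0.32, adjusted p = 0.0599 and 0.0646). Between genotypes under HDM the difference was -0.23 (adjusted p = 0.11), and it passed without KO HDM 4 (-0.33, adjusted p = 0.00403) and without WT HDM 3 (-0.29, adjusted p = 0.0447). Of 4 ligands of the receptor that were measured, the alarmins S100a8 and S100a9 were lower under HDM in both genotypes, S100a8 by differences of -0.36 in KO and -0.51 in WT lungs (adjusted p = 0.0214 and 0.00257) and S100a9 by -0.36 and -0.27 (adjusted p = 0.00611 and 0.0226). Both signals were low, with means of 7.91 and 8.32 over the 16 arrays, under the lowest array median. In KO lungs the S100a8 call ended with quantile normalization, with the clock score and without any 1 of KO HDM 1 and 3 and KO saline 1 and 2. The S100a9 call in WT lungs ended with quantile normalization, the clock score and a fit of only the 2 groups. It also ended without any 1 of WT HDM 2 and WT saline 1 and 3. The clock score ended the other calls too.

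Pdpn encodes podoplanin, a mucin-like membrane protein once named T1α, which is also present on lymphatic endothelium. It was at 11.77, 11.95, 11.82 and 12.05 on the KO HDM arrays, against 11.86, 11.91, 11.88 and 11.92 on the KO saline arrays. In WT lungs it was at 12.06, 11.84, 11.93 and 11.55 under HDM, against 12.25, 12.06, 11.95 and 12.31 under saline. The KO saline arrays lay inside the range of the KO HDM arrays, and all 4 lay under all 4 WT saline arrays. In KO lungs the HDM difference was 0.00 (SE 0.10, 95% interval -0.20 to 0.21, limma adjusted p = 0.992). In WT lungs Pdpn fell by 0.30 (SE 0.10, adjusted p = 0.0443, a change of -18.6%), with 1 HDM array inside the saline range. The WT call ended without WT saline 1, 2 or 4 (-0.26, -0.32 and -0.24, adjusted p = 0.119, 0.0599 and 0.112) and without WT HDM 2 or 4 (-0.30 and -0.20, adjusted p = 0.0837 and 0.136). A shift of the arrays to the same median (-0.29, adjusted p = 0.0506), the clock score (-0.42, adjusted p = 0.646) and a fit of only the 2 groups (adjusted p = 0.0912) ended it too. So did a block for the replicate number (limma adjusted p = 0.0595). Between genotypes under saline the difference was -0.25 (SE 0.10, unadjusted p = 0.0204, limma adjusted p = 0.478).

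Clic5 encodes chloride intracellular channel 5, a protein that in microvilli and in sensory hair cells sits with ezrin and radixin, the linkers between membrane and actin. It was at 11.92, 12.07, 11.90 and 12.37 on the KO HDM arrays, against 12.34, 12.53, 12.45 and 12.45 on the KO saline arrays. In WT lungs it was at 12.36, 12.54, 12.13 and 12.31 under HDM, against 12.43, 12.41, 12.55 and 12.62 under saline. As with Ager, KO HDM 1, 2 and 3 lay under all KO saline arrays and KO HDM 4 did not. Clic5 fell by 0.38 in KO lungs (SE 0.10, limma adjusted p = 0.0217, a change of -23.0%), against a difference of -0.17 in WT lungs (SE 0.10, adjusted p = 0.215). The KO call ended without KO HDM 1, 2 or 3 (-0.33, -0.38 and -0.32, adjusted p = 0.0744, 0.0506 and 0.0831), without KO saline 2 or 4 (-0.35 and -0.37, adjusted p = 0.0727 and 0.0517) and with the clock score (-0.42, adjusted p = 0.0586). Between genotypes under HDM the difference was -0.27 (adjusted p = 0.0829), and it passed without KO HDM 4 (-0.37, adjusted p = 0.00629), without WT HDM 3 (-0.34, adjusted p = 0.0338) and with array weights (-0.28, adjusted p = 0.0435). Of 7 further chloride intracellular channel and ezrin family genes, 3 fell under HDM in KO lungs, which were Clic3 (-0.51, adjusted p = 0.0146), Clic6 (-0.32) and the radixin gene Rdx (-0.25), and 1 rose in WT lungs, Clic1 (0.22).

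Akap5 encodes an anchoring protein that holds protein kinase A and calcineurin at the membrane. It was at 10.78, 11.27, 11.02 and 11.62 on the KO HDM arrays, against 11.46, 11.71, 11.56 and 11.56 on the WT HDM arrays. Under saline it was at 11.39, 11.63, 11.48 and 11.69 in KO lungs and at 11.55, 11.36, 11.48 and 11.50 in WT lungs. The KO HDM arrays had the widest spread of any gene and group among the 8 (SD 0.36, n = 4), with KO HDM 4 inside the ranges of the WT HDM and KO saline groups and KO HDM 1, 2 and 3 under all other arrays. Under HDM, KO lungs were lower than WT lungs by a difference of -0.40 (SE 0.13, limma adjusted p = 0.0478). That call ended without any single one of KO HDM 1, 2 and 3 (-0.27, -0.43 and -0.35, adjusted p = 0.174, 0.0697 and 0.138) and of WT HDM 1 to 4 (-0.44, -0.36, -0.41 and -0.41, adjusted p = 0.0527, 0.132, 0.0662 and 0.0871). It also ended with a variance trend and robust estimation (adjusted p = 0.0504), with the clock score (-0.56, adjusted p = 0.481) and in a fit of only the 2 groups (adjusted p = 0.153). Against saline the KO difference was -0.38 (SE 0.13, adjusted p = 0.0705), and it passed without KO HDM 4 (-0.53, adjusted p = 0.00225) and with array weights (-0.47, adjusted p = 0.00967). In WT lungs the HDM difference was 0.10 (SE 0.13, adjusted p = 0.586).

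Cav1 encodes caveolin 1, the main coat protein of caveolae, the small flask-shaped pits of the cell membrane. It is made by type 1 cells and by endothelium alike, so its signal in whole lung has more than 1 source. It was at 12.33, 12.70, 12.47 and 12.86 on the KO HDM arrays, against 12.92, 13.002, 12.85 and 12.97 on the WT HDM arrays. Under saline it was at 12.77, 12.81, 12.80 and 12.81 in KO lungs and at 12.77, 12.87, 12.93 and 12.92 in WT lungs. KO HDM 1, 2 and 3 lay under all other arrays, and KO HDM 4 lay just above the lowest WT HDM array. Under HDM, KO lungs were lower than WT lungs by a difference of -0.34 (SE 0.09, limma adjusted p = 0.0165). The call ended without KO HDM 1 (-0.26, adjusted p = 0.0605), without KO HDM 3 (-0.30, adjusted p = 0.0591), with the clock score (-0.41, adjusted p = 0.445) and in a fit of only the 2 groups (adjusted p = 0.0963). Against saline the difference was -0.20 in KO lungs (SE 0.09, adjusted p = 0.157), which passed without KO HDM 4 (-0.29, adjusted p = 0.0138) and with array weights (-0.27, adjusted p = 0.0303), and 0.07 in WT lungs (adjusted p = 0.60). Of the 8 caveola genes, which include Cav1, 3 were lower in KO than in WT lungs under HDM, the others being its partner Cav2 (-0.37, adjusted p = 0.0405) and the coat protein Cavin2 (-0.55, adjusted p = 0.0131), and Cav2 and Cavin2 fell under HDM in KO lungs (-0.46 and -0.66, adjusted p = 0.0159 and 0.00394).

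**Figure D2:**
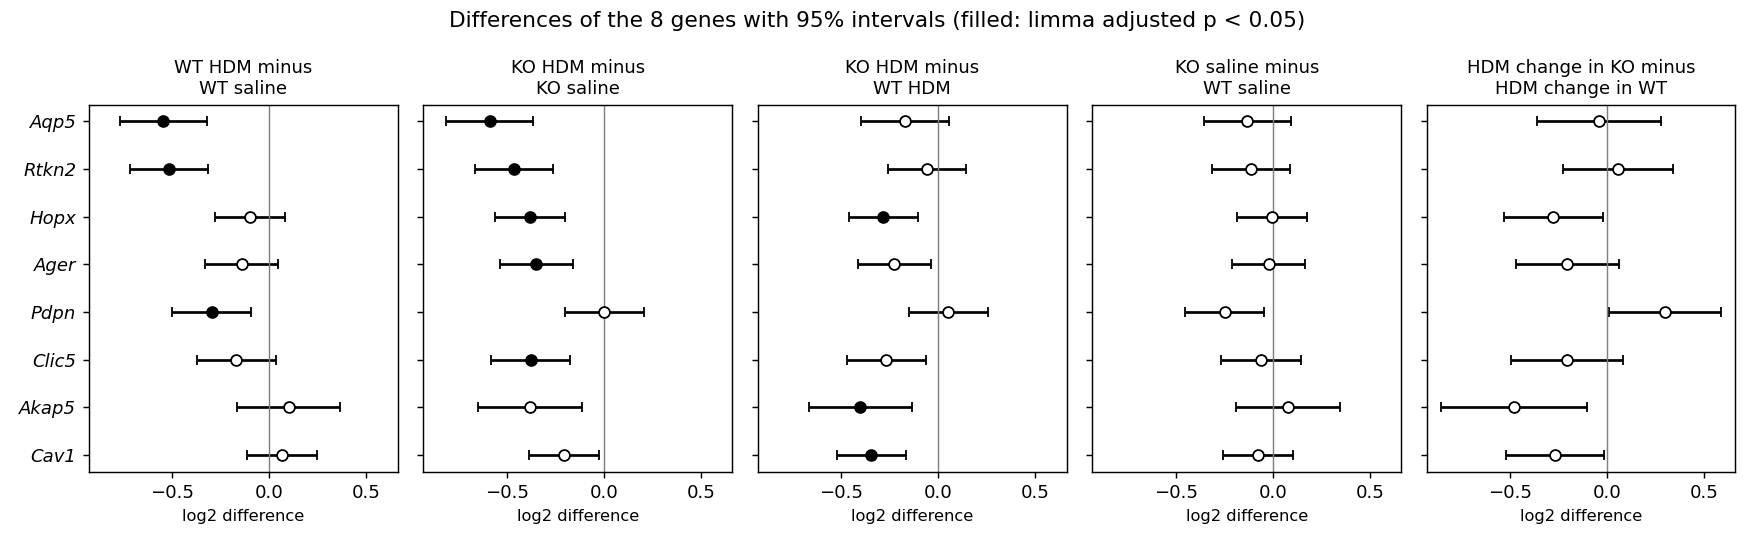
Log2 differences of the 8 genes with their 95% intervals, 1 panel per comparison, with filled points for a limma adjusted p under 0.05. Under HDM against saline the intervals of Aqp5, Rtkn2 and Pdpn lie below 0 in WT lungs, and those of all genes but Pdpn in KO lungs. In the panel of KO against WT under HDM those of Hopx, Ager, Clic5, Akap5 and Cav1 lie below 0. The intervals are not adjusted for the number of genes. Some that lie off 0 therefore have open points, as do those of Ager and Clic5 in that panel.

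Counted together, 5 of the 8 genes were lower under HDM in KO lungs and 0 were higher, where 3.88% of all genes were lower and 4.96% higher. In WT lungs 3 of the 8 were lower and 0 higher, where 9.72% of all genes were lower and 7.86% higher. The groups did not overlap for 3 of the 8 in KO lungs, all lower under HDM (7.33% of all genes), and for 2 of the 8 in WT lungs (14.4%). The median difference of the 8 was -0.38 in KO and -0.16 in WT lungs, against -0.03 and -0.05 over all genes. The 8 are bright on these arrays, with mean signals between percentiles 92.3 (Aqp5) and 99.0 (Ager) of all genes. With a filter at the 50th percentile of mean level 1556 genes passed in KO lungs, against 1763 without it. In WT lungs 2289 passed with it, against 3505. Calls were therefore more frequent among brighter genes than the shares over all genes given here. Without KO HDM 4 the count in KO lungs was 7, where calls over all genes went from 1763 to 2673. It was 3 without each of KO HDM 1, 2 and 3 and KO saline 2 and 4, where between 1034 and 1228 of all genes passed. With WT saline 2 and 3 both left out, 3 of the 8 remained lower in WT lungs, where 1057 of all genes passed, against 3505.

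Between KO and WT lungs under HDM 3 of the 8 were lower and 0 higher, where 5.83% of all genes were lower and 5.84% higher. The groups overlapped for all 8, where 5.06% of all genes lay wholly lower in KO lungs. The median difference was -0.25, against 0.02 over all genes. With the filter at the 50th percentile of mean level 1923 genes passed, against 2327 without it, so calls were again more frequent among brighter genes. The count was 0 without KO HDM 1 or KO HDM 3, 1 without KO HDM 2, WT HDM 1 or WT HDM 2, and 5 without KO HDM 4. The pooled spread includes the tighter saline arrays. The median SD of the 8 genes was 0.20 in KO HDM and 0.19 in WT HDM, against 0.06 in KO saline and 0.08 in WT saline. In a fit of only the 2 HDM groups the SE was 0.11 for Hopx, 0.15 for Akap5 and 0.10 for Cav1, against 0.09, 0.13 and 0.09. There 0 of the 8 passed, where 390 of all genes did. Under saline 0 of the 8 passed, where 0.231% of all genes passed limma's test in either direction. Of the 8, 1 gene, Pdpn, had an unadjusted p under 0.05, where 7.81% of all genes did. A count of 1 gene is too small to be set apart from that share. Every KO saline array lay under every WT saline array for 2 of the 8, Pdpn and Rtkn2 (3.38% of all genes lay so), and the median difference was -0.07.

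The interaction, which is the HDM difference in KO lungs minus that in WT lungs, asks whether the 2 genotypes differed in their change. By limma 0 of the 8 passed it, where 0.802% of all genes passed, and 4 had an unadjusted p under 0.05, where 15.6% of all genes did. These were Akap5 (-0.48, SE 0.18, adjusted p = 0.198), Hopx (-0.28, adjusted p = 0.273), Cav1 (-0.27, adjusted p = 0.286) and Pdpn (0.30, adjusted p = 0.30), the last in the opposite direction to the others. Without KO HDM 4, Akap5 (-0.63, adjusted p = 0.0168) and Cav1 (-0.36, adjusted p = 0.0478) passed, where calls over all genes went from 160 to 1019. For Aqp5 and Rtkn2 the interaction was -0.04 and 0.06 (adjusted p = 0.92 and 0.873). A call for Hopx, Ager or Clic5 in KO lungs beside none in WT lungs is therefore not shown to be a difference between the genotypes.

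The 8 genes varied together from array to array. Over the 16 arrays all 28 pairs had a positive Pearson correlation, between 0.20 and 0.97 with a median of 0.75, and after the group means were taken out it was between 0.23 and 0.91 with a median of 0.64. Aqp5 and Rtkn2 were the most alike pair (0.97, and 0.91 without group means), Akap5 and Cav1 had 0.87 (0.84), and Pdpn and Cav1 were the least alike (0.20 and 0.23). Against the mean of the 8 genes, Clic5 had the highest correlation (0.98) and Pdpn the lowest (0.55). These values describe 16 arrays whose RNA came from mixed tissue, and each pair shares the arrays.

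Other protein-coding genes, without predicted genes and small RNAs, were ranked by likeness to the mean of the 8 over the 16 arrays. The 10 most alike had correlations between 0.955 and 0.977, and between 0.861 and 0.958 without group means. They were Mal2, Ednrb, Emp2, Fgf1, Adgrf5, Eml1, Tmem204, Tmem100, Pon1 and Thbd. Of these, 1 was on the list of further type 1 cell genes, which is Emp2, and 2 on the endothelial list, which are the endothelin receptor gene Ednrb and Tmem100. Because the correlation includes the differences between the groups, the direction in which these genes moved follows from how they were chosen and is given as a description. Pon1, which encodes the lipoprotein-bound enzyme paraoxonase 1, had the largest difference of the 10, -1.54 in KO lungs under HDM, and between KO and WT lungs under HDM it was -1.28.

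Markers of other cells moved on the same arrays, and their part in the results above was not tested. The mean log2 signal of the 8 genes was 11.67, 11.82, 11.70 and 12.09 on KO HDM arrays 1 to 4, where that of 11 leucocyte genes was 11.02, 11.03, 11.15 and 10.57. On the WT HDM arrays the 8 genes were at 12.10, 12.18, 11.89 and 11.94 and the leucocyte genes at 10.53, 10.30, 10.97 and 10.85. Within each HDM group the array with the lowest leucocyte level, KO HDM 4 and WT HDM 2, had the highest level of the 8 genes. On the saline arrays the 8 genes lay between 12.09 and 12.21 in KO and between 12.15 and 12.30 in WT lungs, and the leucocyte genes between 9.97 and 10.14 and between 9.92 and 10.16. Of the 11 leucocyte genes 7 rose under HDM in KO and 6 in WT lungs (median 0.73 and 0.69), with the eotaxin receptor Ccr3 up by 2.60 and 1.78 and the integrin Itgax up by 1.61 and 1.16. Between KO and WT lungs under HDM 1 of them was higher, the complement gene C1qa (0.45, adjusted p = 0.0358).

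**Figure D3:**
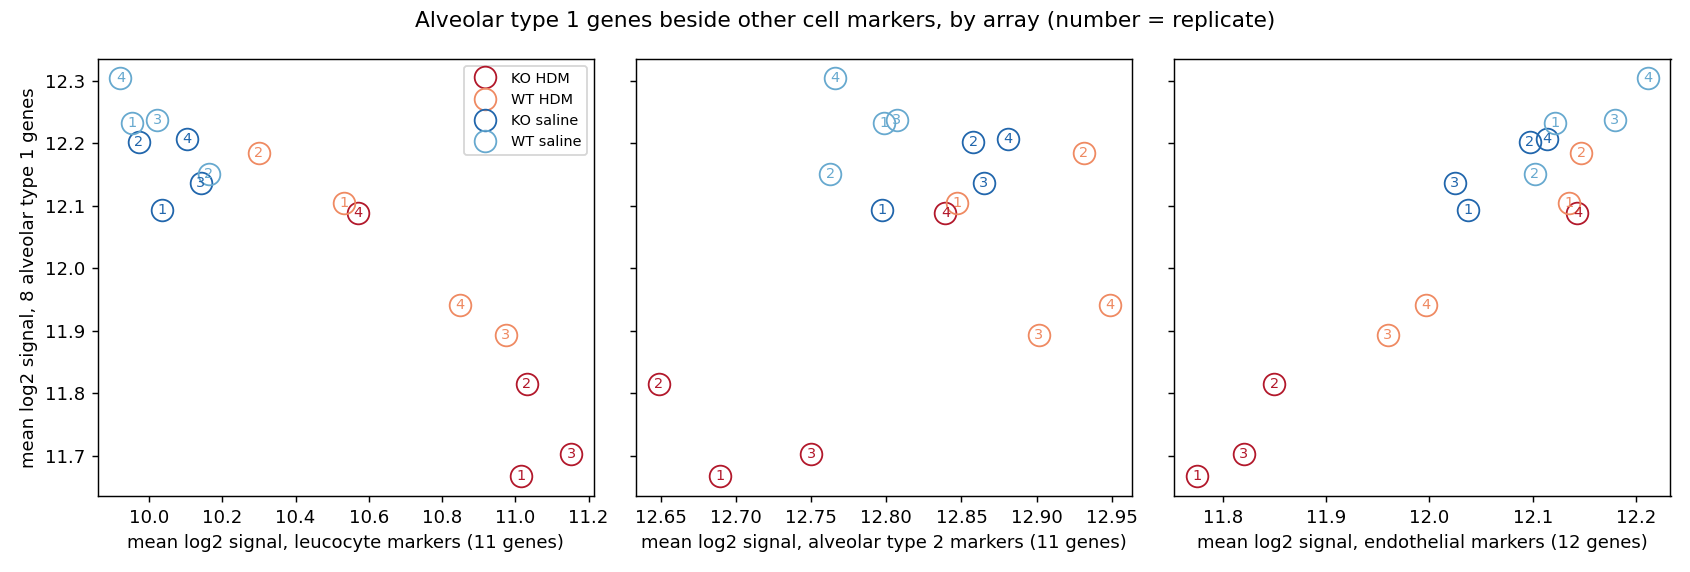
Mean log2 signal of the 8 type 1 cell genes (vertical axis) against that of another marker list (horizontal axis, 1 panel per list), with 1 point per array, numbered by replicate and coloured by group. In the leucocyte panel KO HDM 1, 2 and 3 lie at 11.02 to 11.15 with the 8 genes at 11.67 to 11.82, and KO HDM 4 lies at 10.57 with the 8 genes at 12.09.

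Endothelial genes, whose cells share the barrier with type 1 cells, were at a mean of 11.77, 11.85, 11.82 and 12.14 on the KO HDM arrays, against 12.14, 12.15, 11.96 and 11.996 on the WT HDM arrays, between 12.02 and 12.11 in KO saline lungs and between 12.10 and 12.21 in WT saline lungs. KO HDM 4 was again the highest of its group. Of 12 endothelial genes 5 were lower in KO than in WT lungs under HDM (median -0.09), among them the VEGF receptor gene Kdr (-0.52, adjusted p = 0.00557), the angiopoietin receptor gene Tek (-0.47) and the cadherin gene Cdh5 (-0.26). Against saline 2 fell and 1 rose in KO lungs, where Tmem100 was at -0.66 and Ednrb at -0.47 and the von Willebrand factor gene Vwf at 0.48, and 3 fell and 1 rose in WT lungs, where Emcn was at -0.34, Tmem100 at -0.37, Ednrb at -0.26 and Vwf at 0.31. Of 5 lymphatic endothelial genes, the cells that also carry Pdpn, Mmrn1 rose under HDM in WT lungs (0.36, adjusted p = 0.0389) and was lower in KO than in WT lungs under HDM (-0.39, adjusted p = 0.0358).

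Type 2 cell genes, of the cells from which type 1 cells are renewed, had a median HDM difference of -0.12 in KO and 0.06 in WT lungs. Of 11, 1 fell in KO lungs, the aspartic protease gene Napsa (-0.22). In WT lungs 3 rose, which were surfactant protein D (Sftpd, 0.59, adjusted p = 0.000439), Lamp3 of the lamellar bodies (0.45, adjusted p = 0.000533) and the transcription factor Etv5 (0.24), and Napsa fell (-0.21). Sftpd and Lamp3 passed the interaction (-0.59 and -0.54, adjusted p = 0.032 and 0.0173), but both calls ended with the clock score and with WT saline 2 and 3 both left out. That of Sftpd also ended without any single one of KO HDM 1 and 2, WT HDM 4, KO saline 3 and 4, and WT saline 2 and 3. Between KO and WT lungs under HDM 5 of 11 were lower, among them Lamp3 (-0.34, adjusted p = 0.00519), Etv5 (-0.32), surfactant protein B (Sftpb, -0.31) and the lipid transporter Abca3 (-0.23).

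Further markers of type 1 cells were taken from a separate list of 16 genes. Of these 6 fell under HDM in KO lungs and 0 rose (median -0.22). They were the caveolin gene Cav2, the cytochrome gene Cyp2b10 (-0.44, adjusted p = 0.00537), Sec14l3 (-0.34, adjusted p = 0.0318), the vascular growth factor gene Vegfa (-0.34, adjusted p = 0.0109), the keratin gene Krt7 (-0.31, adjusted p = 0.0463) and Emp2 (-0.23, adjusted p = 0.0445). In WT lungs 1 of the 16 fell, Krt7 (-0.50, adjusted p = 0.00272), and the median was 0.01. Between KO and WT lungs under HDM 4 of the 16 were lower (median -0.22), which were Sec14l3 (-0.45, adjusted p = 0.0078), Cav2, Cyp2b10 (-0.36, adjusted p = 0.0181) and Vegfa (-0.30, adjusted p = 0.0201).

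Of 11 regulators of the type 1 state, 0 passed under HDM in KO lungs (median -0.09), and in WT lungs 2 fell, the TEAD factor gene Tead1 (-0.33, adjusted p = 0.00975) and the TGF-β receptor gene Tgfbr2 (-0.17, adjusted p = 0.0431). The Tgfbr2 call ended without any 1 of WT HDM 2, 3 and 4 and WT saline 1, 2, 3 and 4. Between KO and WT lungs under HDM 2 of the 11 were lower, the transcription factor genes Gata6 (-0.32, adjusted p = 0.008) and Foxa2 (-0.22, adjusted p = 0.0485). The Foxa2 call ended without any 1 of KO HDM 1, 2 and 3 and WT HDM 1, 2 and 4. Of 6 targets of YAP and TAZ, 0 passed in KO lungs, and in WT lungs Axl (0.31, adjusted p = 0.0074) and Ccn2 (0.44, adjusted p = 0.0357) rose, while Axl was lower in KO than in WT lungs under HDM (-0.26, adjusted p = 0.02).

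Genes of alveolar fluid transport beside Aqp5 were measured for 8 of 9 listed. Aqp4, the aquaporin of the basal membrane of airway cells, fell under HDM by 0.86 in KO lungs (adjusted p = 5.62e-05) and fell by 0.46 in WT lungs (adjusted p = 0.00688), the only 1 of the 8 to pass in WT lungs. The sodium channel subunit gene Scnn1a fell in KO lungs (-0.32, adjusted p = 0.0424). That call ended without any 1 of KO HDM 1, 2 and 3 and KO saline 1, 2, 3 and 4. Under HDM, Scnn1a (-0.41, adjusted p = 0.0117) and Scnn1b (-0.56, adjusted p = 0.023) were lower in KO than in WT lungs.

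**Figure D4:**
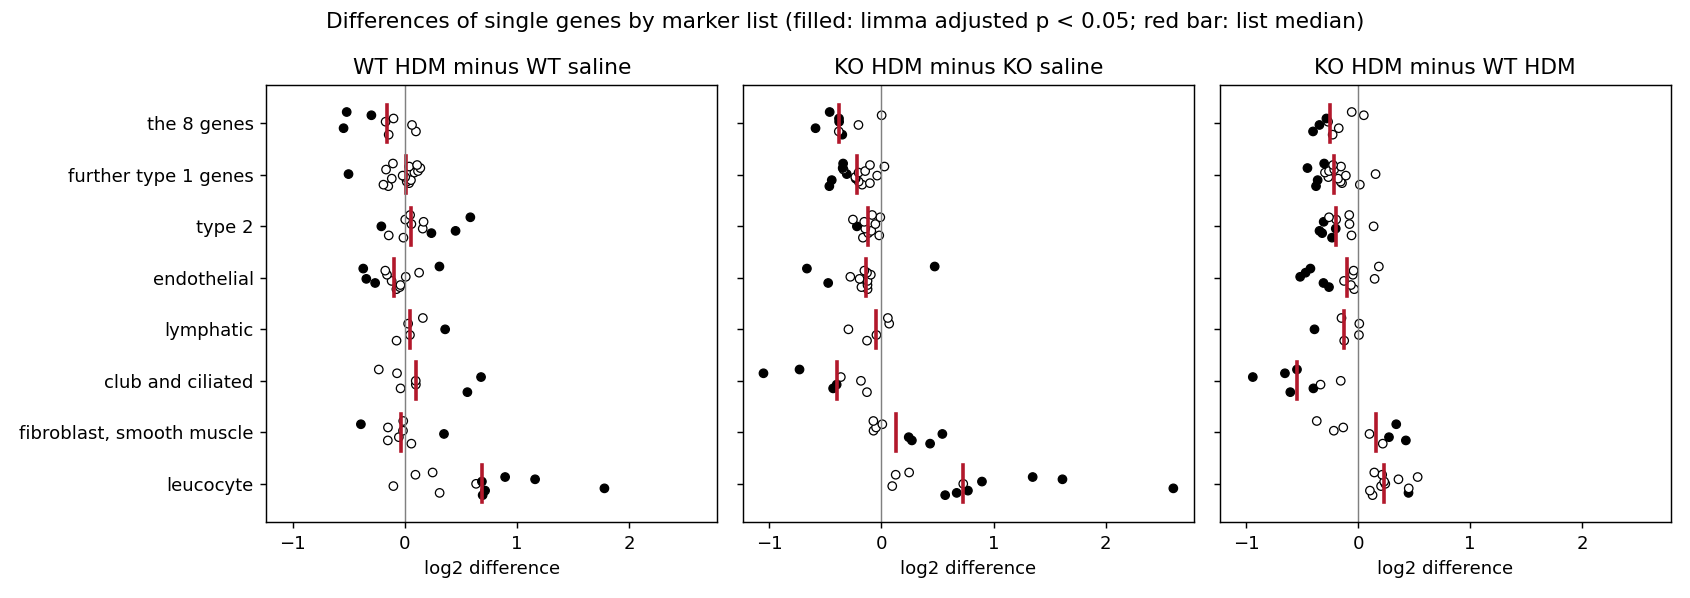
Log2 differences of single genes by marker list, 1 panel per comparison, with filled points for a limma adjusted p under 0.05 and a red bar at the median of each list. The bar of the 8 type 1 cell genes lies at -0.38 for HDM against saline in KO lungs, at -0.16 in WT lungs and at -0.25 for KO against WT lungs under HDM.

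Single arrays also decided many calls of the genes that are not among the 8. In KO lungs under HDM between 3 (without KO HDM 4) and 13 (without KO HDM 1) of 32 such calls ended when 1 array was left out, and Aqp4, Cavin2, Cyp2b10, Vegfa and Tmem100 passed without any single array. In WT lungs between 4 (without WT HDM 1) and 13 (without WT saline 1, and likewise WT saline 3) of 28 ended, 15 ended without both WT saline 2 and 3, and Krt7, Tead1, Axl, Aqp4, Sftpd and Lamp3 passed without any single array. Between KO and WT lungs under HDM between 0 (without KO HDM 4) and 14 (without KO HDM 1, and likewise KO HDM 3) of 29 ended, and Sec14l3, Gata6, Scnn1a, Cavin2, Lamp3 and Kdr passed without any single array. The clock score ended 11 of the 32 calls in KO lungs, all 28 in WT lungs and all 29 between genotypes under HDM. The 29 include Vldlr, the gene that was deleted, so a call ended by this score is not thereby shown to be false. A fit of only the 2 groups ended 3 of 32, 10 of 28 and 25 of 29 in the same order. The last include Sec14l3, Gata6, Scnn1a, Cavin2, Lamp3 and Kdr.

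Clock genes and genes of tissue outside the alveoli differed between the groups too, and their part in the results was not tested. Dbp, a transcription factor that cycles with the time of day, rose under HDM in WT lungs by 1.37 (adjusted p = 3.54e-05) and was lower in KO than in WT lungs under HDM (-1.17, adjusted p = 0.000126). A score over the clock genes lay between -0.46 and 0.16 on the KO HDM arrays, between 0.85 and 2.73 on the WT HDM arrays, between -1.53 and -0.88 on the KO saline arrays and between -1.39 and -0.17 on the WT saline arrays. It was higher on the WT HDM arrays than on all others, and as a covariate it widened the median SE 1.26 times for HDM in KO lungs, 2.37 times for HDM in WT lungs and 1.99 times between the genotypes under HDM. With it 4 of the 8 genes passed in KO lungs, 0 in WT lungs and 0 between the genotypes under HDM. Of 7 heart and skeletal muscle genes 4 were lower in KO than in WT lungs under HDM, with the cardiac myosin gene Myh6 at -0.77 (adjusted p = 0.00552). Of 7 club and ciliated cell genes 5 were lower in that comparison, with the secretoglobin genes Scgb1a1 at -0.94 (adjusted p = 0.0153) and Scgb3a2 at -0.65. Of 8 fibroblast and smooth muscle genes 3 were higher in KO than in WT lungs under HDM, and so were 4 of 4 proliferation genes.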

How the data were processed

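Total lung RNA was labelled from 50 ng per sample, per the labels' protocols. The deposited values are log2 signals, 1 per probe set and array, which the authors obtained by RMA (background correction, normalization between arrays, 1 summary per probe set) in software named as Affymetrix Expression Console by the submitters' processing notes. No version or genome build of the array is stated in the labels or files used. Of 35556 probe sets, 21789 carried 1 symbol in the platform annotation, and they gave 19938 genes. A gene with several (999 genes) was represented by its brightest on average.

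The deposited log2 values went into limma 3.58.1 (R 4.3.3) unchanged, with 4 group means, no covariate, 12 residual degrees of freedom and no filter. P-values are two-sided and Benjamini-Hochberg adjusted over all genes of a comparison; passing means an adjusted p under 0.05. SE is the standard error of a log2 difference. The fit was tested on simulated data. The number of arrays limits the precision.

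The 8 genes and the 19 gene lists were chosen with earlier results of these data known, and so were the tests; 1 of the lists is not reported here. The named genes were the 8, Vldlr, at most 4 genes per list and comparison (the largest that passed, or else the smallest p), and the 10 protein-coding genes most correlated with the mean of the 8. Genes with predicted-gene, Rik or small RNA names were left out of that ranking. The text names a subset. Alternatives were quantile normalization, a shift to the same median, array weights, filters on mean level at the 25th and the 50th percentile, robust estimation with a variance trend, a fit of the 2 groups alone, the mean of all probe sets, a replicate block, a clock score as covariate, and leaving out single arrays or both WT saline 2 and 3. The clock score is the mean of standardised Dbp, Tef, Per2, Per3, Nr1d1, Nr1d2 and Ciart minus that of Arntl and Clock.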

Additional observations from a re-analysis of the deposited data

Results flagged for a closer look

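In groups of 4 arrays, the highest or lowest array of each of the 8 genes was compared with the others by the gap to the nearest array as a share of the group's range. Of 32 combinations of gene and group examined 2 stood out, and chance alone gives about 1 in 20. Hopx was at 11.79 on KO HDM 4, where the nearest of the other KO HDM arrays was at 11.52. Cav1 was at 12.77 on KO saline 1, where the nearest of the other KO saline arrays was at 12.80, so the group as a whole lay within a narrow band (SD 0.02).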

How the results depend on the processing

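Of the 8 genes, 0 passed with the clock score in WT lungs under HDM and 0 between KO and WT lungs under HDM, where 0 also passed in a fit of only the 2 groups; fewer genes passed in all there (3, 4 and 390, against 3505, 2327 and 2327). With 1 array left out the counts lay between 3 and 7 for HDM in KO lungs, between 2 and 3 for HDM in WT lungs, between 0 and 5 between genotypes under HDM, and between 0 and 2 for the interaction. Calls over all genes lay between 1034 and 2673, 1960 and 3611, 968 and 3831, and 41 and 1019 in the same order. After group means were taken out, 7 of 24 same-numbered pairs of arrays correlated over 0.1, against 18 of 72 pairs with different numbers. Of the 16 arrays 6 correlated best with their own number. Replicate 4 had the lowest array median of its group in KO HDM (8.799), WT HDM (8.795), KO saline (8.783) and WT saline (8.798). Whether the numbers stand for a batch was not tested. With the replicate block 6, 2 and 2 of the 8 passed for HDM in KO lungs, HDM in WT lungs and genotype under HDM, against 5, 3 and 3. The block ended the calls of Pdpn under HDM in WT lungs (-0.30, adjusted p = 0.0595) and of Hopx between genotypes under HDM (-0.28, adjusted p = 0.0513), and Akap5 under HDM in KO lungs passed with it (-0.38, adjusted p = 0.0448). Some values that had not passed changed sign. Pdpn under HDM in KO lungs was -0.019 after quantile normalization, -0.031 with array weights, -0.041 with the clock score and -0.047 to 0.045 with 1 array left out. With the clock score, the genotype difference under HDM was 0.11 for Aqp5 and 0.067 for Rtkn2, that under saline was 0.017 for Hopx and 0.010 for Ager, and the interaction of Aqp5 was 0.19. Without WT saline 2 and 3 the interaction of Aqp5 was 0.0026. With 1 array left out, the genotype difference under HDM ranged from -0.14 to 0.018 for Rtkn2 and from -0.047 to 0.12 for Pdpn, that under saline from -0.020 to 0.018 for Hopx and from -0.052 to 0.0030 for Ager, and the interaction from -0.15 to 0.036 for Aqp5 and from -0.030 to 0.13 for Rtkn2. The cause was not tested.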

Other observations

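Genes of the transitional cells through which type 2 cells pass on the way to type 1 cells did not move in one direction. Of 10 measured, 2 rose and 1 fell under HDM in KO lungs, and 2 rose and 3 fell in WT lungs. Tnip3, an inhibitor of NF-κB signalling, rose by 1.75 in KO (adjusted p = 5.57e-06) and 1.34 in WT lungs (adjusted p = 0.000161). The galectin gene Lgals3, which macrophages also express, rose by 0.84 in KO (adjusted p = 0.0115) and 0.60 in WT lungs (adjusted p = 0.0422), and the WT call ended without any 1 of WT HDM 3 and 4 and WT saline 1, 3 and 4. The keratin gene Krt19 was at -0.81 in KO (adjusted p = 0.000512) and -0.57 in WT lungs (adjusted p = 0.0054). Stratifin (Sfn) fell by 0.60 in WT lungs (adjusted p = 0.00431) and was lower in KO than in WT lungs under saline (-0.66, adjusted p = 0.0245). The saline call ended without any single one of KO saline 1 to 4 and WT saline 3, with the mean of all probe sets and in a fit of only the 2 groups.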
